A study of Mus musculus with 7 samples.

Results

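Resident macrophage and microglia identity markers were followed in the choroid plexus, the tissue that secretes cerebrospinal fluid, after a red blood cell treatment. The 9 genes were taken by name from the 40873 genes of the count table. They comprise 5 markers of border macrophages (Lyve1, Folr2, F13a1, Pf4 and Mrc1) and 4 microglia-like markers (P2ry12, Tmem119, Sall1 and Trem2). Poly(A) RNA was sequenced from choroid plexus of the lateral ventricles, pooled from wild-type embryos of the outbred mouse stock CD-1 at E15.5 (embryonic day). For 3 libraries the treatment, given 24 h earlier by a route the labels do not name, was red blood cells washed from the whole blood of other embryos (an E14.5 donor litter), and for 4 control libraries it was saline. Every library is labelled batch 1, and total counts ran from 4393860 to 8386928. The sources used here do not give how many embryos and litters each pool holds, so p-values measure spread among these libraries, which are labelled biological replicates.

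Macrophages of the choroid plexus sit in the stroma, beside its leaky vessels, and on the ventricular face of the epithelium, where they are called epiplexus or Kolmer cells. Border macrophages of the meninges, perivascular spaces and choroid plexus stroma share a set of scavenging and endocytic genes, while microglia of the brain parenchyma carry sensors of nucleotides and lipids and the transcription factor Sall1. Epiplexus cells are known to resemble microglia in part. Several of these genes are not exclusive to macrophages: Pf4 and F13a1 are abundant in megakaryocytes and platelets, Lyve1 in lymphatic endothelium, Sall1 in neural progenitors and Tmem119 in cells of the osteoblast lineage. In pooled tissue, more cells of a type and more RNA per cell cannot be told apart.

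None of the 9 markers passed the test of red blood cells against saline over all genes. The edgeR quasi-likelihood test with Benjamini-Hochberg adjustment called 0 of 5 border markers and 0 of 4 microglia-like markers, where it called 0.0605% of all 14869 genes tested (0.0404% higher and 0.0202% lower with red blood cells). Without adjustment, 2 border markers (Pf4 and Mrc1) and 0 microglia-like markers had p at most 0.05, against 9.54% of all genes (5.22% higher, as both markers were, and 4.32% lower). DESeq2 called 1 border marker, Mrc1, and 0 microglia-like markers, against 1.41% of all genes, and limma-voom called 0 and 0. The fitted difference was above 0 for 4 of 5 border markers, with a median log2 fold change of 0.74, and for 4 of 4 microglia-like markers, with a median of 0.37. The border median was 0.48 without red blood cells 3, and the microglia-like median 0.25 without saline 2. Over all genes tested, 49.9% lay above 0 and the median was -0.000342.

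Promoter sequences are shown for 4 border markers and 1 microglia-like marker, because macrophage promoters are known to be bound by PU.1 (gene Spi1), an ETS factor that recognises a GGAA core. RefSeq windows on GRCm38.p6, a different build from that of the count table, were matched by symbol for 7 of 9 markers (11 windows). The 250 bases before each start were searched on both strands for GGAAGT, for the longer GAGGAAGT, which contains it, and for AGATAA, a form of the GATA site. GGAAGT occurred in 6 of 11 windows of the markers (54.5%) and in 19.7% of all 32851 windows. The windows with a match came from 6 of the 7 genes, and no share per gene was computed over all genes, so the count of genes cannot be compared. Some genes have several windows, and those of 1 gene are not independent. Every window shown holds a match. The Sall1 window with a match is not shown, nor are the windows without one, which belong to Trem2, Sall1, Folr2 and F13a1. The sequences read 5′ to 3′ on the strand of the gene, and capitals mark GGAAGT or its reverse complement ACTTCC, or in Pf4 the longer match.
Pf4, chr5:90772185-90772434, plus strand: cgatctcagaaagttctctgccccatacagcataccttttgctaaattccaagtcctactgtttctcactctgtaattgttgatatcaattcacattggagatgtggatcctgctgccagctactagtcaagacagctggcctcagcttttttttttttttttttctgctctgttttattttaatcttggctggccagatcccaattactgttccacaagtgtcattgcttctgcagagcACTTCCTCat
F13a1, chr13:37049214-37049463, minus strand: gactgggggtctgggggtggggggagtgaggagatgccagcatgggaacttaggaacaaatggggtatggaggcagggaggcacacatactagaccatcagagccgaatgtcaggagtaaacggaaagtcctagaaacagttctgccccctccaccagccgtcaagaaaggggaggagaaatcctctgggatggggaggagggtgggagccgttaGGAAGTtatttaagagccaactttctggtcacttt
Mrc1, chr2:14229164-14229413, plus strand: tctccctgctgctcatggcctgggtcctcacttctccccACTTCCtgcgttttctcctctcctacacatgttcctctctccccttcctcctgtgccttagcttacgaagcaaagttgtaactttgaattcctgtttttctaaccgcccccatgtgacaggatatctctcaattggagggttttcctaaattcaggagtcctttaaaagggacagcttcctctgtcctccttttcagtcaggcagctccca
Folr2, chr7:101857191-101857440, minus strand: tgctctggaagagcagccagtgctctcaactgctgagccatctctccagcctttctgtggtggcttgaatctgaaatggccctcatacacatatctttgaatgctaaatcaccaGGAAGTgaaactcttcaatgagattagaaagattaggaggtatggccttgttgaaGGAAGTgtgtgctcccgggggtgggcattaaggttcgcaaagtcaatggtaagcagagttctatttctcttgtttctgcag
P2ry12, chr3:59262986-59263235, minus strand: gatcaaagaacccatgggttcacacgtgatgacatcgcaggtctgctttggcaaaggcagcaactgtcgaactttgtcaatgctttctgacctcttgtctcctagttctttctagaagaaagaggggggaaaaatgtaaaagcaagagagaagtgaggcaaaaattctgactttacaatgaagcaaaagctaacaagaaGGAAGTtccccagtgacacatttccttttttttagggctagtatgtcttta
The Pf4 window held the single long match among the 11 windows, and 2.44% of all windows held one. AGATAA was found in 0 of the 11 windows and in 9.99% of all. The Folr2 window held 2 of the short matches. A match of letters is a description of the sequence and shows no binding.

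**Figure D1:**
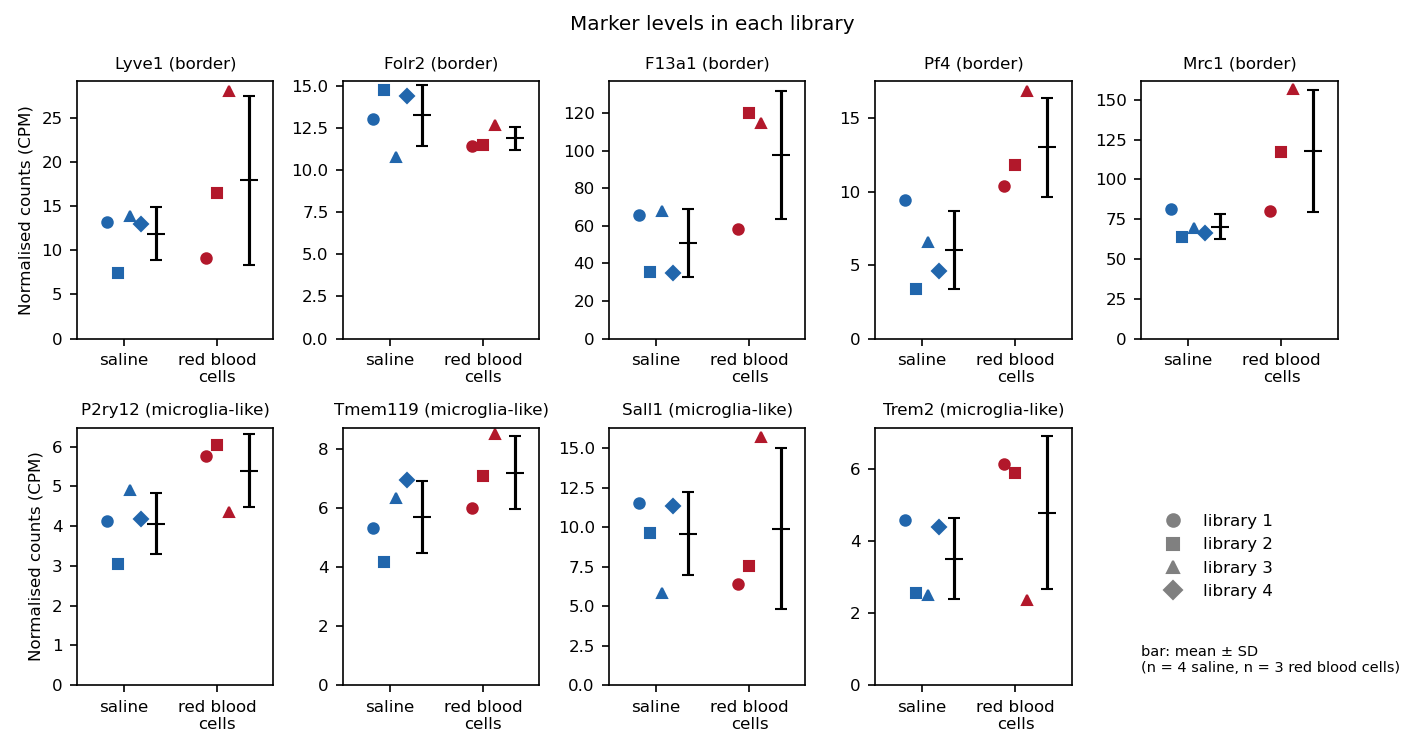
Normalised counts (CPM, linear axes from 0) of the 9 markers, with 1 point per library, saline in blue and red blood cells in red, and the mean ± SD beside each group. Pf4 is the marker whose red blood cell libraries (10.4 to 16.8 CPM) all lie above its saline libraries (3.37 to 9.46 CPM), and Folr2 is about level between the groups.

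Pf4 encodes platelet factor 4 (CXCL4), a heparin-binding chemokine that border macrophages also make. It spans 90920362 to 90921242 of chromosome 5 on the plus strand (GRCm39, as are all positions of the count table given here). Its level was 10.4, 11.8 and 16.8 CPM (normalised counts, scaled to library size) in red blood cells 1, 2 and 3, and 9.46, 3.37, 6.58 and 4.63 CPM in saline 1 to 4. Every red blood cell library lay above every saline library, as was the case in this direction for 4.96% of all genes tested (9.59% in either direction), and Pf4 was the only marker of the 9 whose groups did not overlap. The means were 13.02 ± 3.38 CPM (SD, n = 3) and 6.01 ± 2.65 CPM (SD, n = 4), which gave a fitted log2 difference of 1.08 ± 0.31 (SE, unadjusted p = 0.00597, edgeR adjusted p = 0.228). The 95% interval ran from 0.39 to 1.78 on the log2 scale, and 16 alternative analyses gave adjusted p-values between 0.0990 and 0.575.

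Mrc1 encodes the mannose receptor CD206, an endocytic lectin and a common border macrophage marker (chromosome 2, 14234225 to 14336834, plus strand). Its level was 80.2, 117 and 157 CPM in red blood cells 1 to 3 and 81.6, 64.0, 69.4 and 66.5 CPM in saline 1 to 4. Red blood cells 2 and 3 were above all saline libraries, while red blood cells 1 lay just under saline 1. Its log2 fold change was 0.74 ± 0.21 (SE, 95% interval 0.24 to 1.24, unadjusted p = 0.0103, edgeR adjusted p = 0.274). The gene was called by DESeq2 (adjusted p = 0.00772) and by edgeR without red blood cells 1 (adjusted p = 0.0372), and the 16 alternatives spanned adjusted p-values of 0.00772 to 0.755. The related receptor gene Mrc2, which fibroblasts and other stromal cells use, had 75.0 ± 21.9 and 74.0 ± 4.23 CPM (SD, n = 3 and n = 4), or 0.01 ± 0.16 (SE) as log2 fold change.

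F13a1 encodes the A subunit of coagulation factor XIII, a transglutaminase that crosslinks fibrin (chromosome 13, 37051150 to 37234220, minus strand). Its level was 58.4, 120.1 and 115 CPM with red blood cells and 65.6, 35.6, 67.9 and 34.7 CPM with saline. Red blood cells 2 and 3 were the highest libraries, but red blood cells 1 lay below saline 1 and saline 3, so the groups overlapped. This gave a log2 fold change of 0.92 ± 0.38 (SE, 95% interval -0.03 to 1.86, unadjusted p = 0.0555, edgeR adjusted p = 0.547). F13b, the gene of the carrier subunit made by the liver, had 9 counts in saline 4 and 0 in the other 6 libraries. The exons of F13a1 share 66 bases with the opposite-strand gene Gm30489, which had 3 to 11 counts per library.

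Lyve1 encodes a hyaluronan receptor of perivascular macrophages and lymphatic endothelium (chromosome 7, 110449814 to 110462160, minus strand). It had 9.17, 16.5 and 28.1 CPM with red blood cells and 13.2, 7.38, 13.9 and 12.97 CPM with saline. Red blood cells 1 was the second lowest library and red blood cells 3 the highest of the 7. The log2 fold change was 0.57 ± 0.38 (SE, 95% interval -0.32 to 1.47, edgeR adjusted p = 0.736), and 0.10 without red blood cells 3. Cd44, a hyaluronan receptor of the same family found on leukocytes and many other cells, had 37.4, 46.9 and 19.0 CPM with red blood cells and 10.3 to 18.3 CPM with saline. The groups did not overlap for Cd44, as for 4.96% of all genes in this direction. Its log2 fold change was 1.35 ± 0.32 (SE, edgeR adjusted p = 0.187, and 0.00111 to 0.427 over the alternatives).

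Folr2 encodes the folate receptor beta of resident macrophages (chromosome 7, 101489195 to 101506397, minus strand). Its fitted difference was below 0, unlike that of the other 4 border markers, with 11.4, 11.5 and 12.7 CPM after red blood cells and 13.004, 14.8, 10.8 and 14.4 CPM after saline. The red blood cell libraries lay within the saline range, and the log2 fold change was -0.15 ± 0.16 (SE, edgeR adjusted p = 0.859). Its 95% interval, from -0.49 to 0.19, corresponds to 0.712-fold to 1.14-fold, and lies below the fitted values of Pf4, F13a1, Lyve1 and Mrc1. The intervals of Lyve1 (-0.32 to 1.47) and F13a1 (-0.03 to 1.86) overlap it, and those of Mrc1 (0.24 to 1.24) and Pf4 (0.39 to 1.78) do not. The difference between Folr2 and these genes was not tested. The neighbouring gene Folr1 (101507551 to 101519974, minus strand), the folate receptor of the choroid plexus epithelium, had 824 ± 77.1 and 925 ± 43.7 CPM (SD, n = 3 and n = 4), and a fitted log2 difference of -0.17 ± 0.07 (SE, edgeR adjusted p = 0.496). Folr1 exceeded Folr2 in every library, at 387 to 509 against 8.09 to 11.1 CPM per kb (CPM divided by exon length in kilobases).

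Among the microglia-like markers, P2ry12 encodes the ADP receptor through which microglial processes sense injury (chromosome 3, 59123692 to 59170408, minus strand). It had 5.78, 6.05 and 4.35 CPM with red blood cells and 4.14, 3.05, 4.90 and 4.17 CPM with saline, from 18 to 46 counts per library. Red blood cells 1 and 2 were the highest libraries and red blood cells 3 lay within the saline range. Its fitted log2 fold change was 0.41 ± 0.24 (SE, 95% interval -0.13 to 0.94, edgeR adjusted p = 0.673). P2ry12 lies inside Med12l, a gene on the opposite strand with which it shares 0 exon bases and whose log2 fold change was -0.03 ± 0.08 (SE). In the same receptor cluster, P2ry13 had 0.67 ± 0.30 (SE, edgeR adjusted p = 0.525) and P2ry14 0.53 ± 0.33 (SE, edgeR adjusted p = 0.689). For P2ry13 all red blood cell libraries were above all saline libraries, as for 4.96% of all genes.

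Tmem119, a transmembrane protein used to tell microglia from infiltrating macrophages, spans 113931790 to 113938530 of chromosome 5 on the minus strand. Its level was 6.03, 7.11 and 8.51 CPM with red blood cells and 5.32, 4.17, 6.34 and 6.95 CPM with saline. The upper 2 libraries were red blood cells 3 and 2, and red blood cells 1 fell between saline libraries. On the log2 scale the difference was 0.34 ± 0.23 (SE, 95% interval -0.16 to 0.84, edgeR adjusted p = 0.730).

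Sall1 encodes a zinc finger transcription factor that maintains microglial identity (chromosome 8, 89753867 to 89770790, minus strand). It had 6.40, 7.56 and 15.8 CPM with red blood cells and 11.5, 9.63, 5.86 and 11.3 CPM with saline. Red blood cells 3 was the highest library, while red blood cells 1 and 2 lay below 3 of the 4 saline libraries. The log2 fold change was 0.04 ± 0.35 (SE, 95% interval -0.74 to 0.82, edgeR adjusted p = 0.990) and its sign turned under 4 of 16 alternatives, with -0.44 without red blood cells 3. Its relatives Sall2 and Sall3 had log2 fold changes of -0.04 ± 0.07 and -0.13 ± 0.37 (SE), and Sall4 had 0 counts in all libraries.

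Trem2 encodes a lipid-sensing receptor that signals through the adaptor Tyrobp (chromosome 17, 48653429 to 48659304, plus strand). It had 6.15, 5.90 and 2.35 CPM with red blood cells and 4.58, 2.57, 2.51 and 4.40 CPM with saline, the value of red blood cells 3 resting on 13 counts. Red blood cells 1 and 2 were above all saline libraries and red blood cells 3 was below all of them. The log2 fold change was 0.49 ± 0.36 (SE, 95% interval -0.29 to 1.28, edgeR adjusted p = 0.752), and 0.80 without red blood cells 3. Of the family members nearby, Treml2 had 13, 26 and 6 counts in red blood cells 1 to 3 against 2, 5, 5 and 4 in saline 1 to 4, and Trem1 had 1, 8 and 0 against 0 in all saline libraries. Both were below the count filter of the test.

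**Figure D2:**
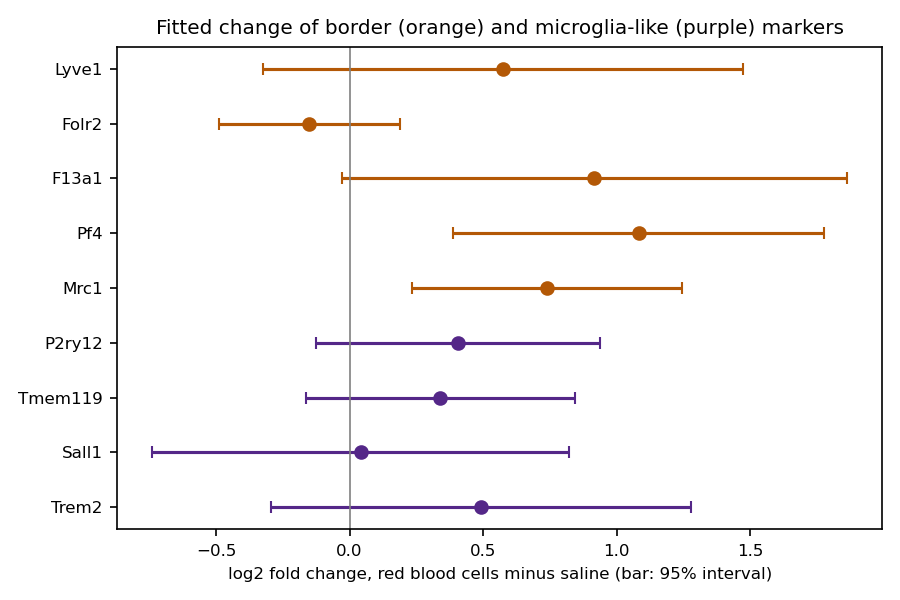
Log2 fold change (red blood cells minus saline) of each marker from the edgeR fit, with its 95% interval, for border (orange) and microglia-like (purple) markers. The intervals of Pf4 (0.39 to 1.78) and Mrc1 (0.24 to 1.24) exclude 0 before adjustment over all genes, and those of the other 7 markers include it.

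Compared per exon length, the border markers were the more abundant kind. After saline the order of mean levels was Mrc1 (13.2 CPM per kb), Pf4 (11.6), F13a1 (10.5), Folr2 (9.94), Lyve1 (4.54), Trem2 (3.07), Tmem119 (2.51), Sall1 (1.65) and P2ry12 (1.52). Between neighbours in that order, Folr2 and Lyve1 were the only pair whose saline ranges (8.09 to 11.1 and 2.83 to 5.32 CPM per kb) did not overlap. In 6 of 7 libraries each border marker exceeded each microglia-like marker. The exception was red blood cells 1, where Trem2 had 5.37 and Lyve1 3.52 CPM per kb. Csf1r, the receptor on which macrophages and microglia depend, had 16.6 CPM per kb after saline.

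**Figure D3:**
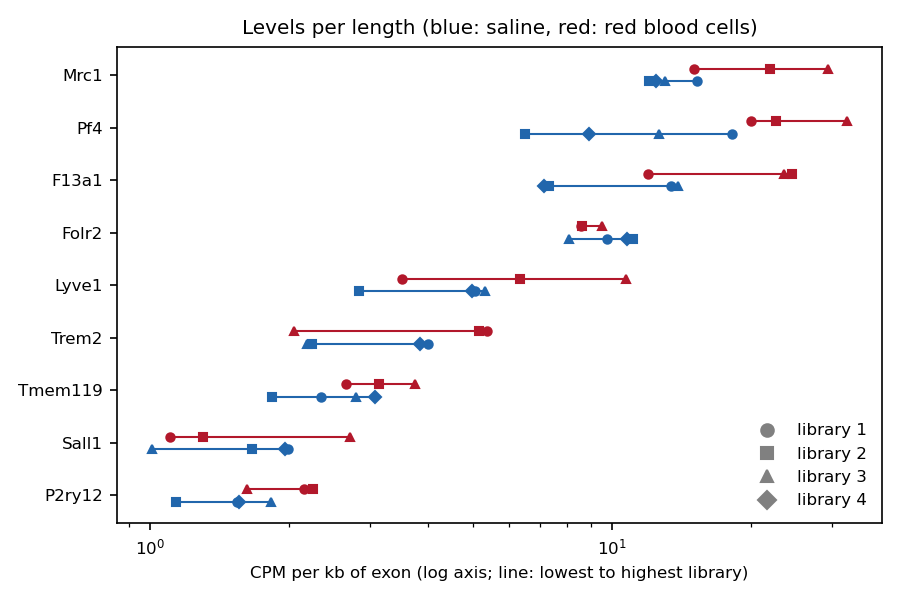
Level of each marker per kilobase of exon (CPM per kb, log axis), with points for libraries and a line from the lowest to the highest library of each group. Genes are ordered by their saline mean, from P2ry12 (1.52) to Mrc1 (13.2).

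Summed per length, the 5 border markers had 59.2, 84.3 and 106 CPM per kb in red blood cells 1 to 3 and 61.8, 39.7, 53.0 and 44.3 CPM per kb in saline 1 to 4. The 4 microglia-like markers together had 11.3, 11.8 and 10.1 CPM per kb with red blood cells and 9.87, 6.88, 7.83 and 10.4 CPM per kb with saline. The groups overlapped for both sums. The ratio of the border to the microglia-like sum was 5.25, 7.12 and 10.4 in red blood cells 1 to 3 and 6.26, 5.78, 6.78 and 4.25 in saline 1 to 4. Red blood cells 3 had the highest ratio and saline 4 the lowest, and red blood cells 1 lay inside the saline range. The mean log2 ratio was 2.87 ± 0.50 (SD, n = 3) against 2.51 ± 0.29 (SD, n = 4), a difference of 0.36 that was smaller than the SD between libraries (0.39, pooled). Leaving out red blood cells 3 gave 0.10, leaving out saline 4 gave 0.22, leaving out red blood cells 1 gave 0.60, and leaving out both red blood cells 2 and saline 4 gave 0.24. It was 0.05 when Pf4 and F13a1 were left out. The difference was not tested, since it is a score over genes chosen with earlier results known.

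**Figure D4:**
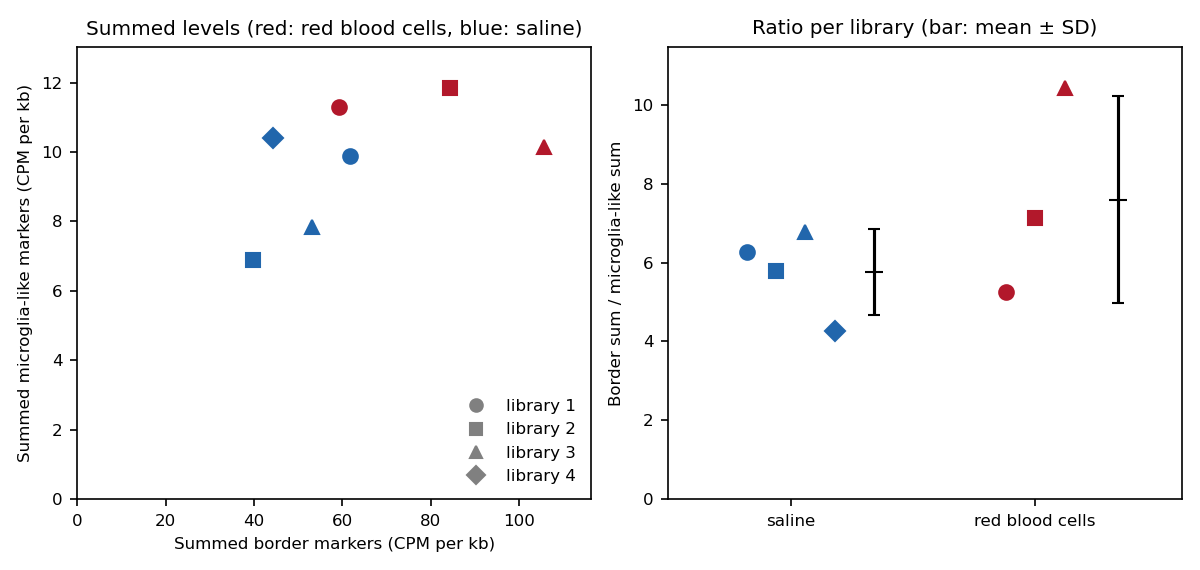
Left, summed level of the 4 microglia-like markers against that of the 5 border markers (CPM per kb) in each library. Right, the ratio of these sums per library with the mean ± SD of each group, which ranges from 4.25 to 6.78 with saline and from 5.25 to 10.4 with red blood cells.

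The markers were also set against Csf1r in the same library, as counts per 100 Csf1r counts, which needs no scaling between libraries and was chosen after the data were seen. Csf1r itself had 72.6, 106 and 106 CPM with red blood cells and 70.3, 56.6, 61.0 and 69.0 CPM with saline. Its log2 fold change was 0.56 ± 0.14 (SE, edgeR adjusted p = 0.163), and its groups did not overlap, as for 4.96% of all genes in this direction. Mrc1 had 111, 111 and 148 per 100 Csf1r counts in red blood cells 1 to 3 and 116, 113, 114 and 96.3 in saline 1 to 4, so its groups overlapped on this scale. Folr2 had 15.7, 10.8 and 11.9 with red blood cells against 18.5, 26.1, 17.6 and 20.8 with saline, and every red blood cell library was below every saline library. Such a separation was found for 38.3% of all genes set against Csf1r, so it is common among genes in general. Pf4 had 14.4, 11.1 and 15.9 after red blood cells against 13.4, 5.95, 10.8 and 6.71 after saline, an overlap in contrast to its CPM. For the other 6 markers the groups overlapped as well, with ratios of the means from 0.691 for Sall1 to 1.27 for F13a1. Adgre1, which encodes F4/80, was higher against Csf1r in every red blood cell library (26.3 to 30.3) than in any saline library (16.6 to 21.8), as were 0.491% of all genes.

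Further genes of the same cells came from lists chosen, like the markers, with earlier results of these data known. Over all genes, edgeR called 0.0605%, DESeq2 1.41% and limma-voom 0.0605%. At an unadjusted p at most 0.05 in edgeR, 5.22% of all genes were higher and 4.32% lower. Of 18 further border macrophage genes 13 could be tested, and 12 of the 13 had a fitted difference above 0 (median log2 fold change 0.69, and 0.38 without red blood cells 3). edgeR called 0 of them (7 at an unadjusted p at most 0.05), DESeq2 3 and limma-voom 0. The most abundant of them, the endothelin receptor gene Ednrb and Gas6, a ligand of phagocytic receptors, had -0.04 ± 0.07 and 0.08 ± 0.11 (log2 fold change, SE), and both are also widely used outside macrophages. Stab1, a scavenger receptor, and Cd163, the receptor of haptoglobin-bound hemoglobin, were picked after their values were seen and had 0.58 ± 0.16 and 0.92 ± 0.45 (SE, edgeR adjusted p = 0.230 and 0.586).
Of 18 further microglia genes 17 could be tested (the symbol Fcrls had no match), with 13 above 0 and a median of 0.13, which leaving out 1 library moved between 0.10 (saline 3) and 0.25 (saline 2), with 0.22 without red blood cells 1. edgeR called 0 (5 at an unadjusted p at most 0.05, 4 of them higher and 1 lower), DESeq2 3 and limma-voom 0. The TGF-beta receptor gene Tgfbr1, among the most abundant of the list, had -0.02 ± 0.09 (SE). Cx3cr1, the fractalkine receptor of microglia and many other macrophages, was picked after its value was seen and had 0.75 ± 0.18 (SE, edgeR adjusted p = 0.169). Rtn4rl1, the lower one, was also picked after its value was seen and had -0.43 ± 0.11 (SE, edgeR adjusted p = 0.176). The highest value was that of Csf3r, picked likewise, at 2.15 ± 0.70 (SE). It rested on 109 counts in red blood cells 2, with 10 to 21 in the other libraries.
All 24 pan-macrophage genes had a fitted difference above 0 (median 0.86). With 1 library left out the median ran from 0.61 (red blood cells 2, with 23 above 0) to 1.00 (saline 4). Among them Adgre1 alone passed the adjusted threshold in edgeR (1.09 ± 0.15, SE, edgeR adjusted p = 0.0280). At an unadjusted p at most 0.05 there were 19, all of them higher, and DESeq2 called 11 and limma-voom 0. With red blood cells 3 left out edgeR called 8 (283 of all 15175 genes tested), and with red blood cells 1 left out 2 (17 of all 15125). With any of saline 1 to 3 left out it called 0 (1 over all genes in each case). Adgre1 was called in 11 of 16 alternatives, whose adjusted p-values for it lay between 3.17e-05 and 0.172. Of the Trem2 partners and activation genes 12 of 19 could be tested, 9 of them above 0 (median 0.42, and 0.22 without red blood cells 2), and edgeR called 0 (4 at an unadjusted p at most 0.05, and 2 called without red blood cells 3), DESeq2 1 and limma-voom 0. The lipid carrier gene Apoe and Spp1, which encodes osteopontin, were the most abundant and had -0.09 ± 0.17 and 0.52 ± 0.60 (SE), while the adaptor gene Tyrobp, picked after its value was seen, had 0.80 ± 0.20 (SE, edgeR adjusted p = 0.141).

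**Figure D5:**
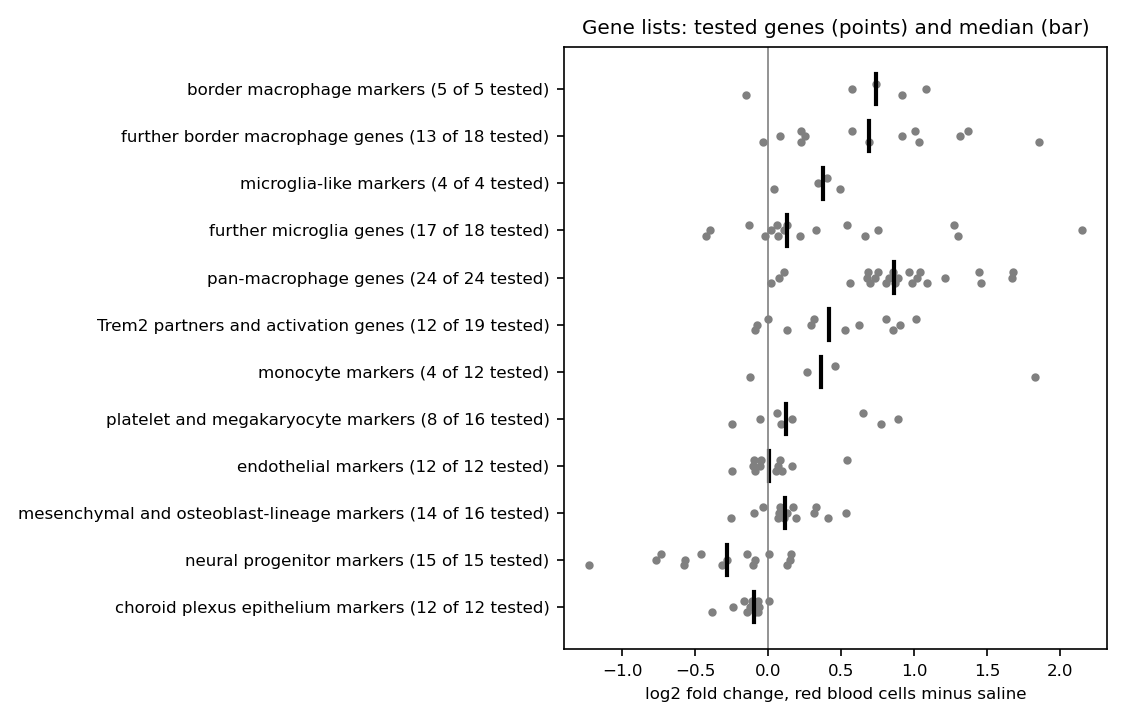
Log2 fold change (red blood cells minus saline) of each tested gene in 12 gene lists (grey points), with the median of each list as a black bar. The medians run from -0.28 for neural progenitor markers (0.03 without red blood cells 2) to 0.86 for pan-macrophage genes (0.61 without red blood cells 2), with 0.74 for the border and 0.37 for the microglia-like markers.

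Markers of other cells that hold some of these transcripts gave the following levels, and their part in the values above was not tested except where a measurement is stated. For Pf4 and F13a1, 16 platelet and megakaryocyte markers summed to 442 to 521 CPM with red blood cells and 511 to 615 CPM with saline. Thbs1, with 406 and 481 CPM on average, made up most of that sum, and Nbeal2 had a log2 fold change of 0.06 ± 0.15 (SE). Of the list 8 could be tested, with 6 above 0, 2 below and a median of 0.13, which ranged from -0.06 (red blood cells 3 left out) to 0.29 (red blood cells 2 left out). In that test edgeR called 0 (1 at an unadjusted p at most 0.05), as did DESeq2 and limma-voom. The tested genes ran from -0.24 for Thbs1 to 0.89 ± 1.12 (SE) for Vwf, which endothelium also makes and which had 315 counts in red blood cells 3 and 26 to 160 in the other libraries. Tubb1, a platelet tubulin, had 1, 22 and 25 counts in red blood cells 1 to 3 against 6, 17, 11 and 4 in saline 1 to 4 (0.77 ± 0.82, SE), and Itga2b, an integrin of the megakaryocyte lineage, had -0.05 ± 0.13 (SE). Ppbp, the platelet chemokine gene next to Pf4, had 4, 13 and 20 counts in red blood cells 1 to 3 and 5, 6, 11 and 9 in saline 1 to 4. In the same cluster Cxcl5, which encodes a chemokine for neutrophils, had 42, 422 and 5 counts in red blood cells 1 to 3 and 0, 1, 0 and 2 in saline 1 to 4, and was below the count filter.

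Stromal marker sums were highest in red blood cells 3, and their part in the values of the 9 markers was not tested. The 16 mesenchymal and osteoblast-lineage markers summed to 2990 CPM there, to 1593 and 1826 CPM in the other two red blood cell libraries, and to 1863 to 2018 CPM with saline. Endothelial markers (12 genes) summed to 1499.9 CPM in red blood cells 3, to 1001 and 1081 CPM in the other two, and to 1180 to 1266 CPM with saline. Red blood cells 3 was also the highest library for Lyve1, Pf4, Mrc1, Tmem119 and Sall1, 5 of the 9 markers. Without it the log2 fold changes of these genes were 0.10, 0.86, 0.48, 0.21 and -0.44. The collagen genes Col1a2 and Col3a1 had log2 fold changes of 0.11 ± 0.17 and 0.31 ± 0.33 (SE), and the endothelial genes Kdr and Cdh5 -0.10 ± 0.09 and 0.08 ± 0.17 (SE). Of these lists 14 and 12 genes could be tested (medians 0.12 and 0.00, and -0.21 and -0.25 without red blood cells 3, with highest values of 0.29 without red blood cells 2 and 0.12 without red blood cells 1), and edgeR, DESeq2 and limma-voom each called 0 in both, with 0 at an unadjusted p at most 0.05. Of the mesenchymal list 11 lay above 0 and 3 below, and of the endothelial list 6 and 6. Of the osteoblast-lineage genes, relevant to Tmem119, Alpl, Sp7 and Runx2 were present in every library. Alpl had 131 to 221 counts (-0.26 ± 0.13, SE), Sp7 11 to 23 (0.41 ± 0.35, SE) and Runx2 9 to 17 (-0.04 ± 0.32, SE). Ibsp had 1, 3 and 0 counts in red blood cells 1 to 3 and 0, 1, 16 and 2 in saline 1 to 4. Bglap, a marker of mature osteoblasts, had 0 in all.

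Lymphatic endothelial and sinusoidal markers, relevant to Lyve1, summed to 682 to 810 CPM with red blood cells and 678 to 764 CPM with saline. Of 10 genes 7 could be tested, with 4 above 0, 3 below and a median of 0.08, which ranged from -0.63 (red blood cells 3 left out) to 0.14 (red blood cells 1 left out), with -0.01 when red blood cells 2 was left out. Of these edgeR called 0 (1 at an unadjusted p at most 0.05), DESeq2 1 and limma-voom 0. Most of the sum was Pdpn (672 and 636 CPM), which the choroid plexus epithelium is known to express, and Reln had -0.73 ± 0.16 (SE, edgeR adjusted p = 0.128). The tested genes ran from -0.76 ± 0.61 for Prox1, the defining factor of lymphatic endothelium, to 1.05 ± 0.49 for Fcgr2b, which macrophages also express (SE). Mmrn1 had 19, 14 and 89 counts in red blood cells 1 to 3 against 27, 29, 30 and 21 in saline 1 to 4 (0.65 ± 0.73, SE), and like Lyve1 it was highest in red blood cells 3. Neural progenitor markers, relevant to Sall1, summed to 290, 202 and 360 CPM in red blood cells 1 to 3 and 272 to 321 CPM with saline. Red blood cells 3 had the highest sum of these markers. This rank rested on Nes, which had 613 counts there and 307 to 519 in the other libraries. All 15 could be tested, with 4 above 0, 11 below and a median of -0.28, which ranged from -0.54 (red blood cells 3 left out) to 0.03 (red blood cells 2 left out), with -0.09 when saline 2 was left out. There were 0 called by edgeR, DESeq2 and limma-voom and 0 at an unadjusted p at most 0.05. Sox2 and Nes, the most abundant of them, had 0.15 ± 0.08 and 0.13 ± 0.28 (SE).

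Of 12 monocyte markers 4 could be tested, with 3 above 0 and a median of 0.36, which was 0.16 to 0.49 when each library was left out. Here edgeR called 0 (0 at an unadjusted p at most 0.05), as did DESeq2 and limma-voom. Their sum was 327 to 411 CPM with red blood cells and 352 to 401 CPM with saline, most of it from Fn1 and Vcan (-0.13 ± 0.08 and 0.26 ± 0.29, SE), which stromal cells also express. Ly6c2, the defining marker of classical monocytes, had 3 counts in all with red blood cells and 1 with saline. Some other genes of the list were high in red blood cells 2, where Ccr2, a chemokine receptor of monocytes, had 125 counts (10 to 29 in the other libraries) and Hp 45 (2 to 6). In contrast, F10 was highest in saline 4, with 33 counts (0 to 9 in the other libraries). Plac8 had 26 counts in red blood cells 2 and 23 in saline 4. Erythroid markers summed to 2278 to 2880 CPM with red blood cells and 2227 to 3324 CPM with saline. Of 14 genes 11 could be tested, with 4 above 0, 7 below and a median of -0.05 (-0.12 to 0.06 when each library was left out), and edgeR called 0 (0 at an unadjusted p at most 0.05), as did DESeq2 and limma-voom. The globin genes Hba-a1 and Hbb-bs had -0.05 ± 0.14 and -0.01 ± 0.11 (SE). Markers of the labelled tissue were present, with Ttr at 11315 ± 1034 and 12055 ± 2031 CPM (SD, n = 3 and n = 4) and Clic6 at 2604 ± 164 and 2739 ± 158 CPM. The 12 epithelial markers had a median log2 fold change of -0.10 (-0.13 to -0.08 when each library was left out), with 1 above 0 and 11 below. Of these edgeR called 0, DESeq2 2 and limma-voom 0. At an unadjusted p at most 0.05 in edgeR there were 4, all of them lower, as were 4.32% of all genes.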

How the data were processed

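RNA sequencing of 7 libraries was deposited by the authors as 1 table of raw read counts per gene, with gene positions and exon lengths, per the file headers. Libraries were directional and poly(A)-selected, per the labels' protocols. Per the submitters' processing notes, the tools were STAR 2.6.1b, cutadapt 2.5 and featureCounts 2.0.6, with the build GRCm39. The sources used here do not give strand and multi-mapping settings or the annotation release, so values of overlapping genes are uncertain. Of 40879 genes, 6 with lines broken over 2 lines were left out. Their continuation lines name no gene and hold 0.107% of counts. A count of 3 is 0.683 CPM in the shallowest library and 0.358 CPM in the deepest.

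The markers and gene lists were chosen with earlier results of these data known. All 14869 genes kept by filterByExpr (minimum count 10) were fitted with edgeR 4.0.16 (TMM, robust quasi-likelihood F test, two-sided) under R 4.3.3, with Benjamini-Hochberg adjustment and a threshold of 0.05. Standard errors were derived from the F statistic and intervals from its degrees of freedom. Sums over markers, ratios and the comparison with Csf1r are given without a test. Alternatives were DESeq2 1.42.0, limma-voom (limma 3.58.1) with and without sample weights, other normalizations and count filters, a replicate block, each library left out in turn, and red blood cells 2 and saline 4 left out together. No pair of libraries agreed within sampling noise (chi-square of 3.6 to 14.19 per degree of freedom). All 9 markers are named. Of each list beyond the markers, the text names up to 3 genes past the threshold or, where none passes, the 2 tested genes with the highest mean CPM, any relative or neighbour of a marker, and genes stated to be picked later. 1 gene that this rule names is not reported here. Other list genes named beside a marker (Itga2b, Tubb1, Vwf, Prox1, Fcgr2b, Mmrn1, Alpl, Sp7, Runx2, Ibsp, Bglap, Ly6c2, Ccr2, Hp, F10 and Plac8) were also picked after their values were seen. List medians with each library left out were added after seeing the data. Likeness between genes was measured as the root mean square difference of centred log2 CPM (prior count 2), among genes whose mean count reached 50, and the 3 nearest genes per marker are named. Figures were drawn with matplotlib 3.10.9.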

Additional observations from a re-analysis of the deposited data

Results flagged for a closer look

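Among 27 values checked in the 4 saline libraries, 3 had 1 library far from the others, and chance alone sets 1 apart in about 1 in 20 groups. Lyve1 had 7.38 CPM in saline 2, where the other saline libraries had 12.97 to 13.9 CPM. The summed pan-macrophage genes reached 1762 CPM in saline 4, whereas the other saline libraries had 1229.5 to 1311 CPM. Ctsb, a lysosomal protease of many cell types, makes up most of this sum. Neural progenitor markers summed to 321 CPM in saline 2 and to 272 to 278 CPM in the other saline libraries.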

How the results depend on the processing

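The number of border markers called was 0 in the main test, 1 with DESeq2 and 0 to 1 when each library was left out in turn (1 without red blood cells 1, the gene being Mrc1 in both cases), and 0 under the other alternatives. Microglia-like markers gave 0 under all 16 alternatives. The number of all genes called was 9 in the main test, 280 with DESeq2, 48 with limma-voom with sample weights, 136 without the count filter, 40 without red blood cells 2 and saline 4, and 1 to 283 when each library was left out (red blood cells 1, 2 and 3 out: 17, 34 and 283; any of saline 1 to 3 out: 1; saline 4 out: 5). The cause was not tested. With a replicate block it was 2, and the block called 0 border and 0 microglia-like markers. The replicate numbers did not pair the libraries: deviations of same-numbered libraries correlated at -0.21 to -0.02 across genes, and 0 of 3 red blood cell libraries correlated best with their own number. The sign of the log2 fold change of Sall1 turned with limma-voom (-0.0340), with sample weights (-0.30), and without red blood cells 3 (-0.44) or saline 3 (-0.14), with values of -0.44 to 0.29 when each library was left out. The other 8 markers kept their sign under the 16 alternatives. The difference in log2 ratio of border to microglia-like markers stayed above 0 under 12 alternatives, from 0.05 to 0.60. Lyve1, Folr2, Pf4 and the microglia-like markers had 13 to 155 counts per library, so counting error adds to the spread among libraries. The share of each in their precision was not tested.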

Other observations

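Genes whose pattern over the 7 libraries was most like that of each marker were ranked among 11214 genes by the root mean square difference of log2 CPM, each gene centred on its own mean. With so many candidates, close matches are found for any gene, and the ranking is a description. Nearest to Mrc1 were Tubb6 (0.16), Adap2 (0.16) and Stab1 (0.16), where Mrc1 itself spread by 0.44. Nearest to F13a1 were Fcgr3 (0.25), Apod (0.28) and Il13ra1 (0.30), and nearest to Pf4 were Gatm (0.36), Il13ra1 (0.37) and C1qb (0.39), with spreads of 0.66 and 0.72. Lyve1 was nearest to Zfp738 (0.28), Phlda1 (0.28) and Cyp1b1 (0.30), with a spread of 0.56. Folr2, with a spread of 0.16, was nearest to Wrap53 (0.03), Ptov1 (0.04) and Mdga1 (0.04). For P2ry12 these were Itgb8 (0.09), Camk2d (0.09) and Ccn2 (0.10), and for Tmem119 Twf2 (0.09), Sat1 (0.10) and Gramd2b (0.10), both markers spreading by 0.29. Sall1 was nearest to the endothelial gene Erg (0.14), then to Angptl4 (0.16) and Adra2a (0.18), with a spread of 0.46. Trem2 was nearest to Cfap97d2 (0.21), Pcp4l1 (0.22) and Inka2 (0.27), with a spread of 0.51. Among the 9 markers themselves, the closest pairs were P2ry12 with Tmem119 (0.27), Lyve1 with Mrc1 (0.30), Mrc1 with Tmem119 (0.31) and F13a1 with Pf4 (0.32), and the widest was Lyve1 with Trem2 (0.84).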
